A study of Mus musculus with 24 samples.

Results

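The genes described are 32 that encode chaperones and folding enzymes of the endoplasmic reticulum, the machinery that brings proteins into it or removes misfolded ones from it, and the sensors of the unfolded protein response. They were taken by gene symbol from a table of raw counts for 22429 genes in mouse liver, and all 32 were found and had enough counts to be tested. The rule is a list of symbols with no threshold on a measured value, but the list was chosen with earlier results of these data known.

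The endoplasmic reticulum is where secreted and membrane proteins are folded, and hepatocytes, which make most plasma proteins, rely on it heavily. When unfolded proteins accumulate there, Hspa5 (also called BiP) is drawn away from the sensor proteins Ern1 (IRE1α), Eif2ak3 (PERK) and Atf6. Ern1 then splices the mRNA of the transcription factor Xbp1, Atf6 is cut to release a transcription factor, and Eif2ak3 slows translation and favours that of Atf4. The nuclear targets of Atf6 and Xbp1 include most chaperones, disulphide enzymes and degradation factors described here. The counts measure transcripts and show neither Xbp1 splicing nor the cleavage or phosphorylation of a sensor.

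All animals were male F1 hybrids of C57BL6J and FVBN mice, and polyadenylated RNA was sequenced from whole liver in 24 libraries, 4 in each of 6 groups. The mutant is Ercc1 d/-, also written Ercc1Δ/−, which combines a truncated with a null allele of a DNA repair gene and ages prematurely. The mutant groups were given 30% dietary restriction (DR) to 16 weeks of age, food ad libitum (AL) to 16 weeks, or AL to 7 weeks. The Ercc1 +/+ (wild-type) groups were given 30% DR to 16 weeks, AL to 104 weeks, or AL to 16 weeks. Restriction began at 7 weeks of age with 10% less food and reached 30% from 9 weeks, which came to 1.6 g of food a day for the mutant and 2.1 g for the wild type. Mean intake when feeding freely was 2.3 g for the mutant and 3.0 g for the wild type. Restricted animals were fed just before the dark phase, and none was fed on the day of collection before the liver was taken. There was no restricted group at 7 or 104 weeks and no mutant group older than 16 weeks.

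The libraries held between 13.3 and 20.6 M (mega) counts each. Ercc1 itself ran from 1.08 to 2.33 CPM (the count per megacount of library, on sizes scaled by TMM) in the 12 mutant libraries and from 2.06 to 4.46 in the 12 wild-type libraries, so the ranges met at their ends. No gene took more counts than albumin in any library (3.77 to 12.0%), and no hepatocyte marker was at 0 in any library. Transcripts of mitochondrial DNA made up 8.60 to 16.9% of counts. The summed count of 7 pancreatic acinar enzymes, taken from a list of 12 acinar markers, was 215 in replicate 1 of the wild type at 104 weeks. It was at most 6 in every other library. Of the markers left out of that sum, Cela1, Cela2a and Amy2a5 had counts in every library. The sum over all 12 was 46.4 to 73.6 CPM in the wild type at 104 weeks and 27.8 to 37.0 in the freely fed wild type at 16 weeks.

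Many target genes of Atf6 carry an ER stress response element, ERSE, before their start site: CCAAT, 9 free bases, then CCACG, bound by the factor NF-Y and by Atf6 or Xbp1. A shorter form, ERSE-II, reads ATTGG, 1 free base, then CCACG. Both strands of a window from 250 bases before to 50 bases after the start site were searched in RefSeq promoters of GRCm38.p6, which hold 27 of the 32 genes. Those not matched were Manf, Hyou1, Atf6, Derl1 and Sec61a1. ERSE occurred in 10 of the 27 promoters (37.0%) and in 37 of 27025 promoters in the whole table (0.137%), and ERSE-II in 2 of 27 (7.41%) and 12 of 27025 (0.0444%). The elements of the genes on which the results below turn most often are shown here from 5′ to 3′, in 29 bases with the fixed letters of the motif in capitals.
Hspa5, ERSE (chr2:34772020-34772048, plus strand): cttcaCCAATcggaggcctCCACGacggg
Hsp90b1, ERSE (chr10:86705633-86705661, minus strand): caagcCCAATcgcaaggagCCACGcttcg
Hsp90b1, ERSE (chr10:86705528-86705556, plus strand): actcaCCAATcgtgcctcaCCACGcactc
Ero1b, ERSE (chr13:12565677-12565705, minus strand): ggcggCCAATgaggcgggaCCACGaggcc
Calr, ERSE (chr8:84847070-84847098, plus strand): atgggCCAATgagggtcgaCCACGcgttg
Canx, ERSE (chr11:50325795-50325823, minus strand): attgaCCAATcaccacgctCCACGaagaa
Creld2, ERSE (chr15:88819515-88819543, minus strand): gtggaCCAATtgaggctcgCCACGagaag
Syvn1, ERSE (chr19:6046527-6046555, plus strand): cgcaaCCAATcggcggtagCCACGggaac
Herpud1, ERSE-II (chr8:94386368-94386396, plus strand): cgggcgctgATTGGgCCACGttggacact
Dnajb11, ERSE-II (chr16:22857843-22857871, plus strand): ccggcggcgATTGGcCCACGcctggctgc
The strand is the one on which the motif reads as spelled. In Hspa5 the motif lay 65 to 47 bases before the start site and in Syvn1 44 to 26 before it. In Herpud1 the short form lay 52 to 42 bases before the start site, and in Dnajb11 it lay 7 to 17 bases after it. The other promoters with ERSE were those of Pdia6, Dnajc3 and Derl3. The 8 letters TGACGTGG, the core of the Xbp1 site UPRE, occurred in 1 of the 27 promoters, that of Sec24d, and in 193 of 27025 (0.714%). The separate parts of ERSE were common: CCAAT was found in 81.5% of the 27 promoters and 41.1% of all, and CCACG in 85.2% and 35.5%. A match to these letters is a description of the sequence and not a measured binding site.

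Most of the ER genes were lower in the livers of restricted mutant mice, both against the restricted wild type and against the freely fed mutant. Against the restricted wild type, 21 of 32 were called lower (edgeR quasi-likelihood test, Benjamini-Hochberg adjusted p under 0.05 over 12690 genes) and 0 higher, where 18.3% of all genes were called and 8.70% were called lower. Against the freely fed mutant of the same age, 21 of 32 were called lower and 0 higher, where 11.2% of all genes were called and 6.33% were called lower. The median log2 fold change of the 32 genes was -0.79 in the comparison with the restricted wild type and -0.95 in the comparison with the freely fed mutant, and that of all genes was -0.03 and 0.00. Both comparisons use the same 4 restricted mutant libraries, so their counts are not independent of each other. A lower level in whole liver can come from fewer cells that express a gene or from less RNA per cell, and the counts cannot tell these apart.

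The other comparisons called few or none of the 32. In wild-type mice, 5 were higher and 0 lower at 104 than at 16 weeks, where 10.1% of all genes were called and 5.13% called higher. In the restricted against the freely fed wild type, 2 were lower and 0 higher, where 13.6% of all genes were called and 7.30% called lower. In the freely fed mutant against the wild type at 16 weeks, edgeR called 0 of 32, where 9.94% of all genes were called. An unadjusted edgeR p under 0.05 was found for 6 of 32, beside 24% of all genes, and DESeq2 called 2. In the freely fed mutant at 16 against 7 weeks, edgeR called 0 of 32, where 0.686% of all genes were called. There 1 of 32 had an unadjusted edgeR p under 0.05, beside 10.4% of all genes, and DESeq2 called 0.

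**Figure D1:**
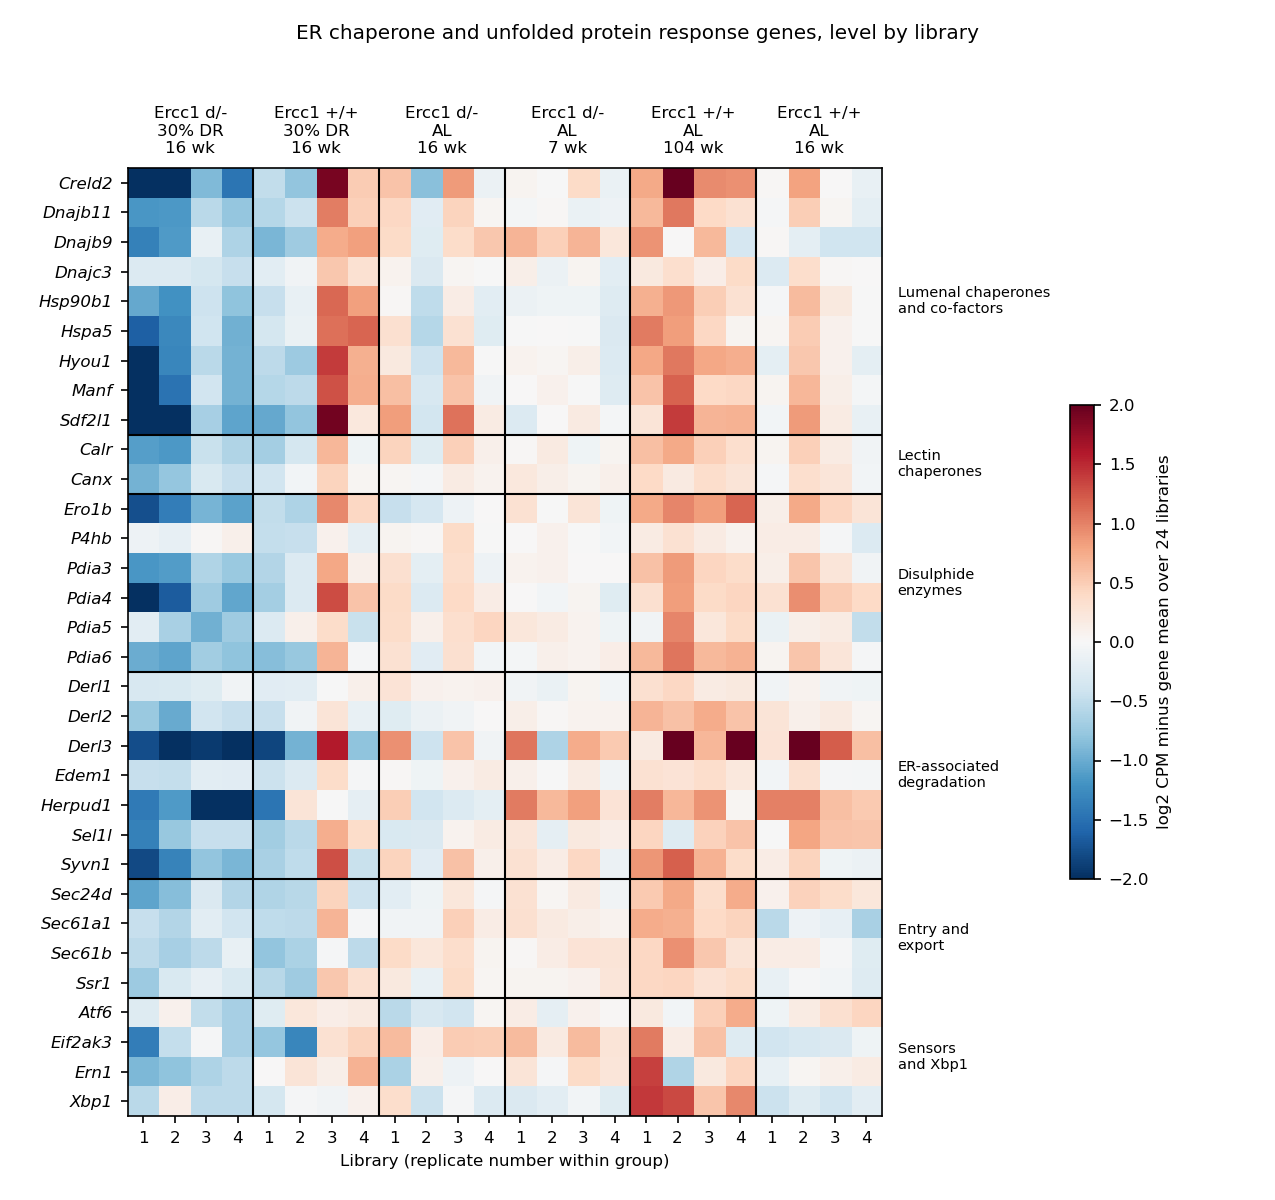
Level of each of the 32 genes (rows, grouped by role) in each of the 24 libraries (columns, by group and replicate number), as log2 CPM minus the gene's mean over all libraries; colours are capped at -2 and 2. The 4 restricted mutant libraries at the left are blue for most genes, replicates 1 and 2 of the restricted wild type are paler blue, and its replicates 3 and 4 are red or near white for most.

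Among the lumenal chaperones and their co-factors, in restricted mutant livers 8 of 9 fell below the restricted wild type by the test and 6 of 9 below the freely fed mutant. Hspa5 (ENSMUSG00000026864.13, chr2:34771970-34777547, plus strand, GRCm38), the main chaperone of the compartment, had 415, 531, 983 and 661 CPM in the 4 restricted mutant libraries, against 1005, 1179, 2774 and 2875 in the restricted wild type. In the freely fed mutant at 16 weeks it had 1610.3, 873, 1591 and 1085 CPM. Every restricted mutant library lay below every restricted wild-type library, while the highest of them exceeded the lowest of the freely fed mutant. The log2 fold change was -1.60 ± 0.32 (SE, edgeR adjusted p = 0.00117) against the restricted wild type and -0.99 ± 0.31 (edgeR adjusted p = 0.042) against the freely fed mutant. Its level ran from 1056 to 1297 CPM in the mutant at 7 weeks, 1340.5 to 2658 in the wild type at 104 weeks and 1281 to 1843 in the freely fed wild type at 16 weeks.

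Hsp90b1 (GRP94), a lumenal Hsp90, had 548, 481, 833 and 637 CPM in the restricted mutant, against 807, 997, 2455 and 1954 in the restricted wild type and 1130.5, 777, 1235 and 959 in the freely fed mutant. Replicate 3 of the restricted mutant lay above the lowest library of each of the other groups, and the remaining 3 lay below both. The restricted genotypes differed by -1.31 ± 0.26 (edgeR adjusted p = 0.00101) on the log2 scale, and the mutant diets by -0.71 ± 0.26 (edgeR adjusted p = 0.0763), which did not pass. Creld2, a chaperone with disulphide isomerase activity, had 11.8, 18.7, 43.6 and 29.1 CPM in the restricted mutant, against 57.3, 46.4, 299 and 113 in the restricted wild type and 119, 44.8, 144 and 74.2 in the freely fed mutant. No restricted mutant library reached the lowest library of the other pair of groups. The log2 fold change was -2.32 ± 0.53 (edgeR adjusted p = 0.00433) against the restricted wild type and -1.89 ± 0.52 (edgeR adjusted p = 0.022) against the freely fed mutant.

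Sdf2l1, which works with Hspa5 and its J proteins, had the next largest difference among these genes (-1.92 ± 0.53 (edgeR adjusted p = 0.0153) against the restricted wild type and -1.86 ± 0.53 (edgeR adjusted p = 0.025) against the freely fed mutant). Hyou1 (GRP170), which exchanges the nucleotide bound to Hspa5, had log2 fold changes of -1.58 ± 0.36 (edgeR adjusted p = 0.00443) and -1.26 ± 0.36 (edgeR adjusted p = 0.0266) in the same order. Manf, a secreted stress protein that binds Hspa5, had -1.53 and -1.34, and the J protein Dnajb11 (ERdj3) -1.15 and -1.07, all called. The J protein Dnajc3 (p58IPK) was called against the restricted wild type (-0.51 ± 0.15 (edgeR adjusted p = 0.0161)) and not against the freely fed mutant (-0.30 ± 0.15 (edgeR adjusted p = 0.194)). Dnajb9 (ERdj4), which returns Hspa5 to Ern1, was called in neither, at -0.92 ± 0.34 (edgeR adjusted p = 0.0658) and -1.03 ± 0.34 (edgeR adjusted p = 0.0577).

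Calr and Canx, the lectin chaperones that hold glycoproteins while they fold, were both lower in both comparisons. Calr (ENSMUSG00000003814.8, chr8:84841850-84846934, minus strand) had 259, 252, 411 and 369 CPM in the restricted mutant, against 349, 438, 879 and 524 in the restricted wild type and 756, 470.1, 779 and 599.5 in the freely fed mutant. The restricted mutant libraries lay below all freely fed ones, and 2 of them lay above the lowest restricted wild-type library. Its log2 fold change was -0.76 ± 0.22 (edgeR adjusted p = 0.0167) against the restricted wild type and -1.01 ± 0.22 (edgeR adjusted p = 0.00285) against the freely fed mutant. Canx (ENSMUSG00000020368.15, chr11:50293961-50325673, minus strand) had 119, 133, 183 and 165 CPM in the restricted mutant, against 174, 218, 309.9 and 233 in the restricted wild type and 233, 224, 255 and 239 in the freely fed mutant. Replicate 3 of the restricted mutant lay above replicate 1 of the restricted wild type, and the mutant groups did not overlap. The log2 fold changes were -0.64 ± 0.15 (edgeR adjusted p = 0.00331) against the restricted wild type and -0.66 ± 0.15 (edgeR adjusted p = 0.00309) against the freely fed mutant.

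Of the 6 enzymes that form and rearrange disulphide bonds, 5 were lower in both comparisons, and P4hb (PDI) was not called in either. Ero1b (ENSMUSG00000057069.7, chr13:12565874-12611396, plus strand), an oxidase that recharges the isomerases, had 13.02, 16.8, 23.0 and 20.9 CPM in the restricted mutant, against 31.4, 28.8, 85.3 and 58.5 in the restricted wild type and 31.98, 34.9, 40.8 and 44.4 in the freely fed mutant. All 4 restricted mutant libraries lay below every library of both other groups. Ero1b differed by a log2 fold change of -1.47 ± 0.26 (edgeR adjusted p = 2.65e-04) against the restricted wild type and -1.05 ± 0.25 (edgeR adjusted p = 0.00766) against the freely fed mutant. The gene ran from 41.2 to 54.4 CPM in the mutant at 7 weeks, 74.4 to 98.5 in the wild type at 104 weeks and 47.8 to 74.6 in the freely fed wild type at 16 weeks.

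Pdia4 (ERp72, ENSMUSG00000025823.9, chr6:47796141-47813430, minus strand), a disulphide isomerase, had 59.5, 76.7, 148 and 118 CPM in the restricted mutant, against 152, 199.8, 599 and 360.2 in the restricted wild type and 316, 201, 318 and 268 in the freely fed mutant. The groups did not overlap in either comparison. Pdia4 had a log2 fold change of -1.70 ± 0.32 (edgeR adjusted p = 7.25e-04) against the restricted wild type and -1.45 ± 0.32 (edgeR adjusted p = 0.00362) against the freely fed mutant. Pdia3 (ERp57, ENSMUSG00000027248.13, chr2:121413775-121438687, plus strand), the isomerase that works with Calr and Canx, had 232, 239.8, 343 and 313 CPM in the restricted mutant, against 347, 432, 897 and 562 in the restricted wild type and 652, 455, 666 and 489 in the freely fed mutant. Again no restricted mutant library reached the other groups, with log2 fold changes of -0.99 ± 0.21 (edgeR adjusted p = 0.00202) and -1.00 ± 0.21 (edgeR adjusted p = 0.00232) in the same order.

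Pdia5 (ENSMUSG00000022844.8, chr16:35397312-35490873, minus strand), an isomerase reported to act on Atf6 in human cells, had 50.5, 37.2, 30.1 and 35.5 CPM in the restricted mutant, against 48.2, 62.5, 75.0 and 42.8 in the restricted wild type and 75.6, 62.6, 73.8 and 79.0 in the freely fed mutant. Its restricted groups overlapped and its 2 mutant groups did not. The log2 fold change was -0.58 ± 0.20 (edgeR adjusted p = 0.0467) against the restricted wild type and -0.93 ± 0.20 (edgeR adjusted p = 0.00279) against the freely fed mutant. Pdia6 had -0.78 ± 0.23 (edgeR adjusted p = 0.0194) and -0.98 ± 0.23 (edgeR adjusted p = 0.00578) in the same order. P4hb, the most general isomerase and also a subunit of collagen prolyl hydroxylase, had 857, 819.9, 938 and 994 CPM in the restricted mutant, against 664, 673, 981 and 816 in the restricted wild type and 955, 940.0, 1198 and 922 in the freely fed mutant. Its groups overlapped in both comparisons, with log2 fold changes of 0.20 ± 0.13 (edgeR adjusted p = 0.284) and -0.15 ± 0.13 (edgeR adjusted p = 0.495).

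**Figure D2:**
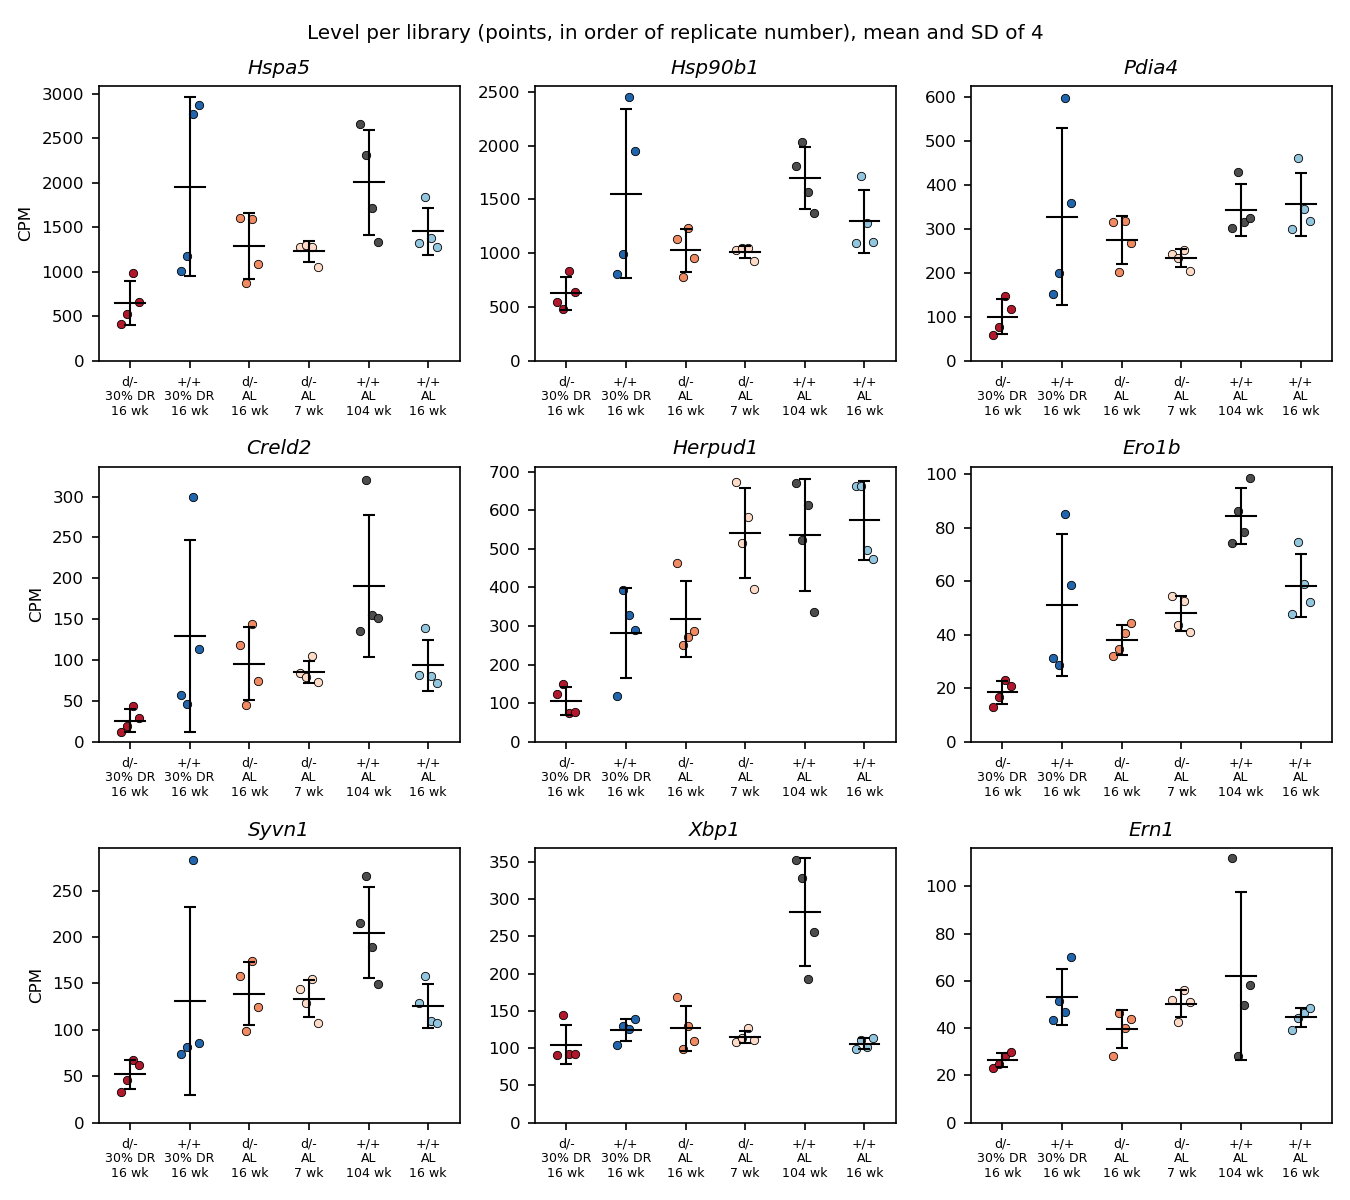
CPM of 9 genes in each library (points, in order of replicate number within a group), with the mean and SD of the 4 libraries as lines; each axis starts at 0 and groups are ordered as in the plot by library. Restricted mutant points are at or near the low end of the values in each panel, apart from replicate 2 for Xbp1 (144 CPM). Restricted wild-type points spread widely for Hspa5, Hsp90b1, Creld2 and Syvn1, and Xbp1 is high in the 4 libraries of the 104-week wild type alone.

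Among the 7 genes of ER-associated degradation, which returns misfolded proteins to the cytosol for destruction, 5 were lower in each comparison. Herpud1 (ENSMUSG00000031770.16, chr8:94386438-94395377, plus strand), a scaffold of the degradation complex, had 123, 149, 73.9 and 76.6 CPM in the restricted mutant, against 119.6, 394, 328 and 289 in the restricted wild type. The freely fed mutant had 464, 251, 272 and 288 CPM at 16 weeks and the freely fed wild type 663, 663, 498 and 475. Replicate 1 of the restricted wild type lay inside the restricted mutant's range, and the other libraries of these groups lay above it. The log2 fold change was -1.42 ± 0.31 (edgeR adjusted p = 0.00243) against the restricted wild type and -1.59 ± 0.31 (edgeR adjusted p = 0.00117) against the freely fed mutant. Herpud1 was 1 of the pair of genes also lower in the restricted than in the freely fed wild type (-1.02 ± 0.30 (edgeR adjusted p = 0.0273)), where the groups did not overlap and the call was lost in 7 of 14 alternatives.

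Syvn1 (HRD1), the ubiquitin ligase of the complex, had 33.2, 45.9, 67.6 and 62.1 CPM in the restricted mutant, against 74.4, 81.7, 283 and 85.8 in the restricted wild type and 158, 99.1, 175 and 124 in the freely fed mutant. Without overlap in either comparison, its log2 fold change was -1.33 ± 0.34 (edgeR adjusted p = 0.00875) against the restricted wild type and -1.41 ± 0.34 (edgeR adjusted p = 0.00796) against the freely fed mutant. Its partner Sel1l was called in the first comparison (-0.80 ± 0.26 (edgeR adjusted p = 0.0353)) and not in the second (-0.64 ± 0.26 (edgeR adjusted p = 0.124)), although the mutant groups did not overlap. Edem1, which trims and hands over glycoproteins for degradation, was called in neither (-0.28 ± 0.13 (edgeR adjusted p = 0.157) and -0.39 ± 0.13 (edgeR adjusted p = 0.0622)).

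The derlins, membrane proteins of the exit channel, were unequal. Derl2 (ENSMUSG00000018442.13, chr11:71007164-71019841, minus strand) had 37.6, 31.4, 48.0 and 45.6 CPM in the restricted mutant, against 45.5, 59.7, 75.4 and 56.6 in the restricted wild type and 53.3, 57.8, 59.9 and 63.0 in the freely fed mutant. It overlapped between the restricted groups and not between the mutant groups, with log2 fold changes of -0.54 ± 0.13 (edgeR adjusted p = 0.00508) and -0.53 ± 0.13 (edgeR adjusted p = 0.00925). Derl1 was not called against the restricted wild type (-0.15 ± 0.10 (edgeR adjusted p = 0.316)) and was lower than in the freely fed mutant (-0.36 ± 0.10 (edgeR adjusted p = 0.0178)). Derl3 was scarce, at 0.642, 0.268, 0.584 and 0.13 CPM in the restricted mutant, against 0.617, 1.15, 6.61 and 1.27 in the restricted wild type and 4.15, 1.65, 3.28 and 2.10 in the freely fed mutant. Its log2 fold changes of -2.52 ± 0.81 and -2.75 ± 0.81 in the same order rest on few counts (edgeR adjusted p = 0.0344 and 0.0297).

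The 4 genes of protein entry and export were called least often against the restricted wild type, at 0 of 4, and 2 of 4 were lower than in the freely fed mutant. Sec61b (ENSMUSG00000053317.11, chr4:47474658-47483242, plus strand), a subunit of the channel through which new proteins enter, had 39.9, 36.1, 39.8 and 51.8 CPM in the restricted mutant, against 33.4, 37.0, 56.9 and 40.0 in the restricted wild type. The freely fed mutant had 74.8, 67.1, 73.0 and 59.9 CPM at 16 weeks and the freely fed wild type 64.0, 63.7, 56.3 and 48.7. The restricted groups overlapped and their difference did not pass the test (log2 fold change 0.00 ± 0.16 (edgeR adjusted p = 0.991)). Each was called lower than its freely fed counterpart, at -0.71 ± 0.16 (edgeR adjusted p = 0.0033) in the mutant and -0.48 ± 0.16 (edgeR adjusted p = 0.0447) in the wild type. The mutant call held in 13 of 13 alternatives, and the wild-type call was lost in 8 of 14. Sec24d, a coat protein of vesicles that leave the compartment, was lower in the restricted than in the freely fed mutant (-0.64 ± 0.19 (edgeR adjusted p = 0.0288)). The channel subunit Sec61a1 and the translocon-associated protein Ssr1 did not pass the test there (-0.55 ± 0.20 (edgeR adjusted p = 0.0757) and -0.50 ± 0.19 (edgeR adjusted p = 0.0996)).

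Of the 3 sensors and Xbp1, 1 was called lower in each comparison and 0 higher. Ern1 (ENSMUSG00000020715.9, chr11:106394650-106487852, minus strand) had 23.3, 24.8, 28.1 and 30.0 CPM in the restricted mutant, against 43.5, 51.5, 47.0 and 70.1 in the restricted wild type and 28.0, 46.5, 40.2 and 43.7 in the freely fed mutant. Every restricted mutant library lay below the restricted wild type, and 1 freely fed mutant library lay among them. Its log2 fold change was -1.00 ± 0.26 (edgeR adjusted p = 0.00881) against the restricted wild type and -0.58 ± 0.26 (edgeR adjusted p = 0.157) against the freely fed mutant. Eif2ak3 (ENSMUSG00000031668.14, chr6:70844515-70905245, plus strand) had 8.11, 15.2, 20.8 and 13.3 CPM in the restricted mutant, against 12.3, 8.60, 26.3 and 28.9 in the restricted wild type and 32.8, 23.2, 30.1 and 29.7 in the freely fed mutant. It showed the reverse pattern of calls, at -0.40 ± 0.32 (edgeR adjusted p = 0.406) against the restricted wild type and -1.01 ± 0.32 (edgeR adjusted p = 0.0395) against the freely fed mutant.

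Atf6 (ENSMUSG00000026663.6, chr1:170704674-170867771, minus strand) had 18.6, 23.6, 15.9 and 14.1 CPM in the restricted mutant, against 18.8, 26.0, 24.5 and 25.3 in the restricted wild type and 15.3, 17.8, 17.1 and 22.8 in the freely fed mutant. Its groups overlapped and it was called in neither (-0.39 ± 0.18 (edgeR adjusted p = 0.136) and -0.02 ± 0.18 (edgeR adjusted p = 0.97)). Xbp1 (ENSMUSG00000020484.18, chr11:5520659-5525893, plus strand) had 90.6, 144, 91.8 and 91.7 CPM in the restricted mutant, against 104, 129.8, 125 and 139 in the restricted wild type and 168, 98.2, 130.2 and 109 in the freely fed mutant. It too overlapped, at -0.25 ± 0.18 (edgeR adjusted p = 0.349) and -0.27 ± 0.18 (edgeR adjusted p = 0.364). The counts of Xbp1 sum its spliced and unspliced forms.

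**Figure D3:**
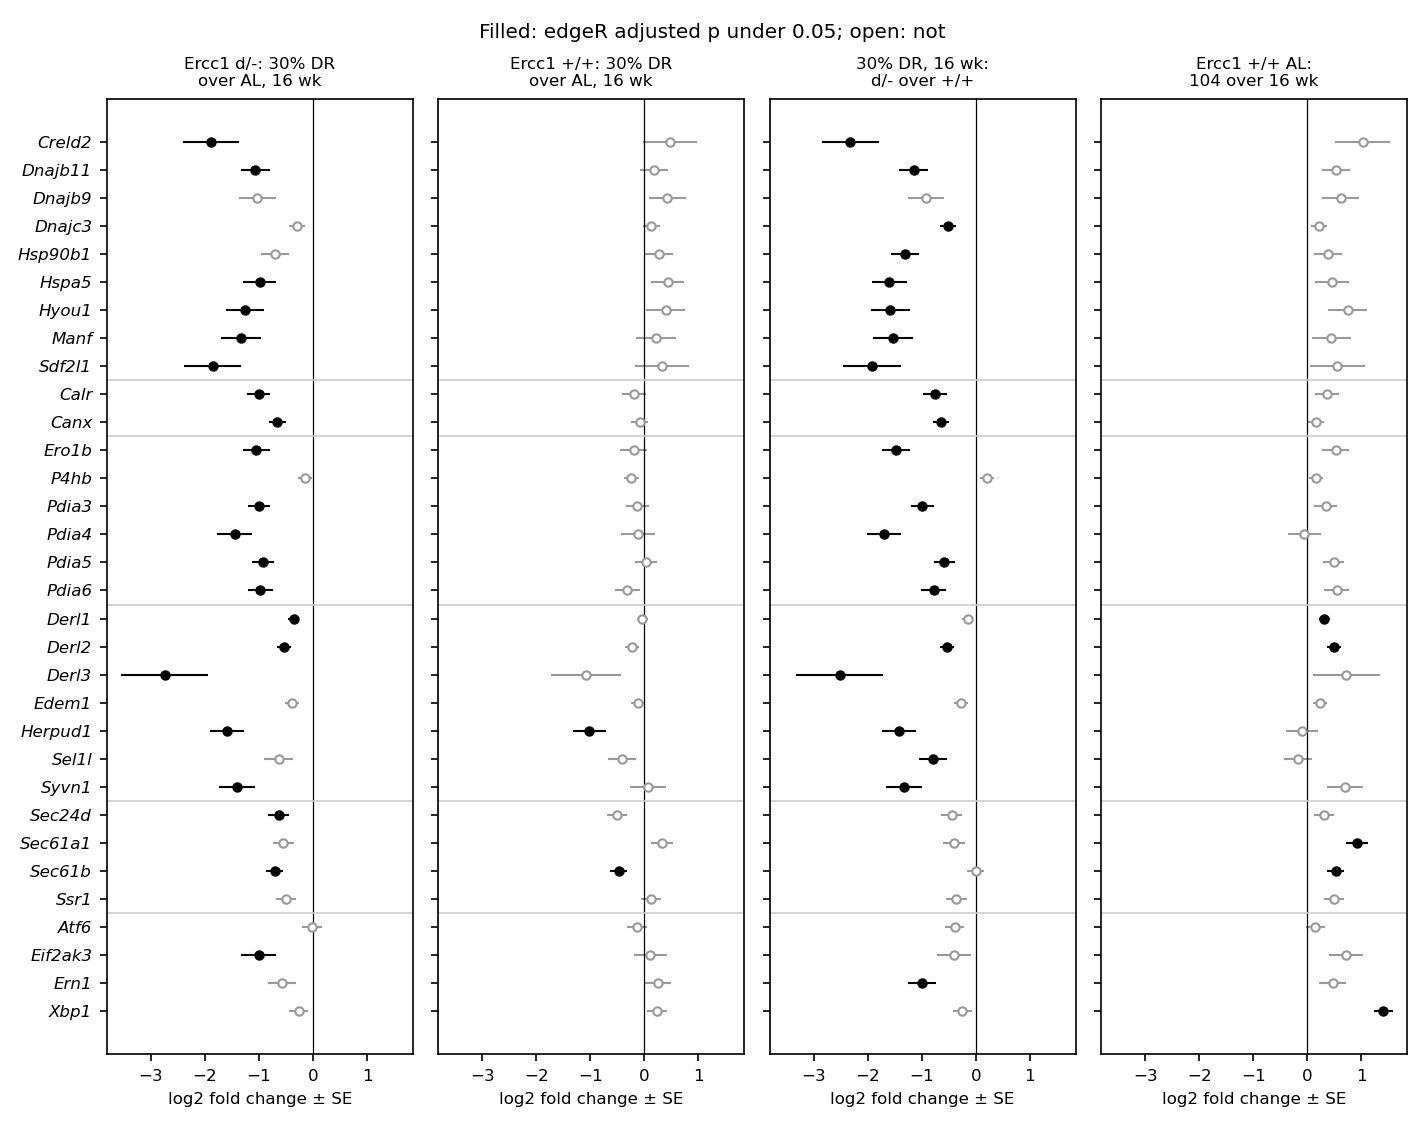
Log2 fold change ± SE of the 32 genes in 4 comparisons from the fit across all libraries; filled points have an edgeR adjusted p under 0.05. In the mutant, restriction over free feeding gave values at or below 0 for all 32 genes with 21 filled, restriction in the wild type gave values on both sides of 0 with 2 filled, the restricted mutant over the restricted wild type gave 21 filled to the left, and 104 over 16 weeks gave 5 filled to the right.

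Counts of genes without overlap between groups gave a different balance of the 2 comparisons. Against the restricted wild type, 8 of 32 genes had all restricted mutant libraries below all others, where 7.11% of all genes did so. Against the freely fed mutant, 24 of 32 did, where 9.60% of all genes did so. The spread of the restricted wild type bears on the first count: the ratio of the highest to the lowest library of a group had a median over the 32 genes of 1.66 in the restricted mutant, 2.62 in the restricted wild type and 1.46 in the freely fed wild type. Over all genes these medians were 1.51, 1.65 and 1.32 in the same order. Sdf2l1 had the widest ratio in the restricted wild type, at 7.59.

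Library by library, the restricted wild type was less uniform than the restricted mutant on these genes. In the restricted mutant, the median log2 ratio of the 32 genes to the mean of the freely fed mutant was -1.18, -1.02, -0.48 and -0.83, with 31, 30, 32 and 32 of 32 genes below that mean. In the restricted wild type, relative to the mean of the freely fed wild type, the median log2 ratio of the 32 genes was -0.67 in replicate 1, -0.52 in replicate 2, 0.49 in replicate 3 and -0.02 in replicate 4, while the median of all genes lay between -0.01 and 0.02 in each. Replicate 1 was below the freely fed mean for 32 of 32 genes, replicate 2 for 29, replicate 3 for 3 and replicate 4 for 16. Replicate 3 held the highest value of its group for 24 of 32 genes and replicate 1 the lowest for 25. The restricted mutant had the same order, with its replicate 3 highest for 21 genes and its replicate 1 lowest for 19. The labels give no batch, hour of collection or other record that separates the 4 restricted wild-type libraries, and total counts of 20.0, 14.2, 14.5 and 16.7 M did not order them in the same way. The summed level of 10 macrophage and Kupffer cell markers was 83.5, 104, 147 and 142 CPM in these 4 libraries, and that of 14 circadian clock genes was 274, 427, 378 and 373 CPM. Against the freely fed wild type, 4 of the 14 clock genes were higher and 4 lower (57.1% called, beside 13.6% of all genes). A sum hides such opposite shifts and does not read the clock. The part of either list in the split was not tested.

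**Figure D4:**
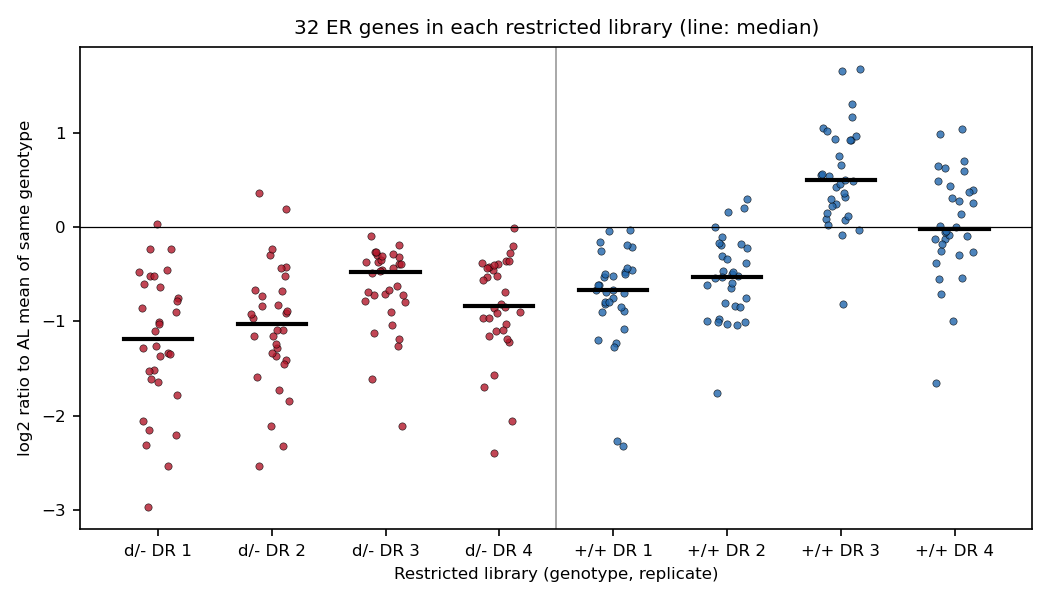
Log2 ratio of each of the 32 genes (points) in each restricted library to the mean of the freely fed libraries of the same genotype at 16 weeks (pseudocount 0.5 CPM); thick lines are medians. All 4 mutant medians lie between -1.18 and -0.48, and the wild-type medians run from -0.67 in replicate 1 to 0.49 in replicate 3.

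The number of genes called against the restricted wild type turned on those libraries. Without replicate 3 of the restricted wild type, 13 of 32 genes were called, all lower; without replicates 3 and 4, a choice made after seeing the data, 3 were lower (Pdia4, Ero1b and Herpud1) and 1, P4hb, was higher. A fit on the libraries of these 2 groups alone called 6, where the main fit shares 1 estimate of spread per gene over all 6 groups. Under every alternative tried, Pdia4, Ero1b and Herpud1 kept their call. The count against the freely fed mutant was 13 without replicate 1 or replicate 3 of the freely fed mutant and 12 without replicate 1 or replicate 2 of the restricted mutant. The genes that kept their call under every alternative tried were Pdia3, Pdia4, Pdia5, Pdia6, Ero1b, Herpud1, Calr, Canx, Dnajb11, Syvn1, Derl2 and Sec61b.

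Whether restriction acted differently in the mutant was tested as the interaction of diet and genotype. EdgeR called 0 of 32 genes, where 1.50% of all genes were called, and DESeq2 called 5. An unadjusted edgeR p under 0.05 was found for 21, beside 14.2% of all genes, all 21 with a negative difference (mutant minus wild type). The smallest adjusted p was 0.096, for Pdia5 (difference of log2 fold changes -0.96 ± 0.28), and the largest differences were those of Creld2 (-2.35 ± 0.72 (edgeR adjusted p = 0.122)) and Sdf2l1 (-2.19 ± 0.73 (edgeR adjusted p = 0.159)). The median difference over the 32 genes was -0.84. The 5 genes called by DESeq2 were Hspa5, Dnajb11, Syvn1, Creld2 and Hyou1. The diet effect was called for 21 genes in the mutant and 2 in the wild type, and the wild-type count was 6 without replicate 3 of the restricted wild type, 9 without its replicates 3 and 4, and 0 without its replicate 1 or 4 or without replicate 1 or 2 of the freely fed wild type.

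In the wild type, ageing to 104 weeks went with higher Xbp1. It had 352, 329, 193 and 255 CPM at 104 weeks, against 98.3, 110.4, 101 and 114 at 16 weeks, and 108 to 126 in the mutant at 7 weeks. Every old library lay above every library of the other 5 groups. The log2 fold change was 1.41 ± 0.18 (edgeR adjusted p = 1.25e-05). Sec61a1 (ENSMUSG00000030082.14, chr6:88503579-88518905, minus strand) had 151, 147, 119 and 123 CPM at 104 weeks, against 62.4, 84.2, 80.7 and 57.9 at 16 weeks, also without overlap (0.92 ± 0.20 (edgeR adjusted p = 0.00334)).

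The other genes called were Derl2 (0.50 ± 0.13 (edgeR adjusted p = 0.0157)), Sec61b (0.53 ± 0.16 (edgeR adjusted p = 0.032)) and Derl1 (0.32 ± 0.10 (edgeR adjusted p = 0.0422)). Of the lumenal chaperones, lectin chaperones and disulphide enzymes, 0 of 17 passed the test, with Hspa5 at 2007 ± 590.1 CPM at 104 weeks and 1456 ± 261 at 16 weeks (SD, n = 4 each, log2 fold change 0.46 ± 0.31 (edgeR adjusted p = 0.384)). The median log2 fold change of the 32 genes was 0.48 and that of all genes 0.02. The groups did not overlap for 8 genes, all higher, where 8.21% of all genes did so upward. Without replicate 3 of the 16-week wild type 3 genes were called, and without its replicate 4 only Xbp1 and Sec61a1, both of which were called under every alternative tried.

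Markers of other cells moved with age in the same libraries. The summed level of 9 B and plasma cell markers was 44.5 to 52.6 CPM at 104 weeks and 5.33 to 11.4 CPM at 16 weeks, and 4 of 4 tested markers were higher, with the immunoglobulin light chain Igkc at 4.35 ± 0.51 (edgeR adjusted p = 4.35e-06). Plasma cells use Xbp1 and the entry and export machinery heavily, as background; the plasma cell receptor Tnfrsf17 was at 0 in all 24 libraries and the highest count of Jchain was 23 and of Mzb1 23. Of 10 macrophage and Kupffer cell markers 3 were higher and 0 lower, with a summed level of 147 to 266 CPM at 104 weeks and 107 to 158 at 16 weeks. Of 3 tested neutrophil markers 2 were higher and the third was not called (-0.77). The sum over 5 neutrophil markers overlapped, at 8.08 to 11.0 CPM at 104 weeks and 7.98 to 10.6 at 16 weeks. Of 13 acute-phase genes 5 were higher (38.5%) and of 20 secreted plasma proteins 7 (35.0%), with 0 lower in each. Over all genes 5.13% were called higher. Of 14 clock genes 4 were higher and 3 lower, at a sum of 415 to 556 CPM at 104 weeks and 278 to 366 at 16 weeks. The part of these cells and genes in the higher Xbp1 was not tested. Ern1 had 112, 28.4, 49.7 and 58.2 CPM at 104 weeks, against 39.1, 44.4, 46.6 and 48.5 at 16 weeks. Its highest value was in replicate 1, the library with the highest summed count of 7 pancreatic acinar enzymes. Without that library the log2 fold change of Xbp1 was 1.29 (edgeR adjusted p = 8.43e-05). The part of acinar transcripts in the levels of Ern1 or Xbp1 was not tested.

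Between freely fed mutants and wild types of 16 weeks, the lowest adjusted p among these genes was that of Atf6, at 18.3 ± 3.22 CPM in the mutant and 26.0 ± 3.86 in the wild type (SD, n = 4 each, log2 fold change -0.51 ± 0.18 (edgeR adjusted p = 0.0689)). Herpud1 followed at -0.85 ± 0.30 (edgeR adjusted p = 0.0776) with groups that did not overlap, and Ero1b at -0.62 ± 0.25 (edgeR adjusted p = 0.121), also without overlap. Eif2ak3 and Sec61a1 lay higher in the mutant without overlap (0.72 ± 0.31 (edgeR adjusted p = 0.161) and 0.48 ± 0.20 (edgeR adjusted p = 0.125)). In all, 2 of 32 genes were higher and 3 lower without overlap, where 11.0% of all genes were higher and 11.4% lower without overlap. A fit on these 2 groups alone called 7 genes, with Herpud1, Ero1b, Sel1l and Atf6 lower and Eif2ak3, Dnajb9 and Sec61a1 higher. That fit also raised the count over all genes, as given in the last paragraph, so the 7 are not a result about these genes alone. DESeq2 called Herpud1 and Atf6. Between 16 and 7 weeks in the mutant, the smallest adjusted p was that of Herpud1 (464, 251, 272 and 288 CPM at 16 weeks, against 673, 515, 582 and 396 at 7 weeks, log2 fold change -0.77 ± 0.30 (edgeR adjusted p = 0.337)).

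The 10 listed genes with the ERSE letters in their promoter were called lower against the restricted wild type, 10 of 10 with a median log2 fold change of -1.32. Of the 17 whose window lacks it 9 were, with a median of -0.58. Of all tested genes with a promoter window, 8.72% were lower. Without replicate 3 of the restricted wild type the calls that stayed were 5 of 10 and 6 of 17, and without its replicates 3 and 4 they were 1 of 10 and 2 of 17. Against the freely fed mutant it was 8 of 10, median -1.00, beside 10 of 17, median -0.71, and 6.22% of all tested genes with a promoter window. Calls there fell to 5 of 10 without replicate 1 or 3 of the freely fed mutant or replicate 1 or 2 of the restricted mutant, beside 7 or 8 of 17. Among the 27 genes outside the list whose promoter also matches ERSE, 11 had enough counts to be tested. Of these, 2 were lower against the restricted wild type, Acacb (-1.08, edgeR adjusted p = 0.00544) and Acnat2 (-0.89, edgeR adjusted p = 0.00509), and both were higher against the freely fed mutant (1.02 and 0.76, edgeR adjusted p = 0.0121 and 0.0205). Another 3 of the 11 were lower against the freely fed mutant: Xlr3a (-3.87, edgeR adjusted p = 0.0159), Xlr3b (-3.64, edgeR adjusted p = 0.0189) and Xlr3c (-3.91, edgeR adjusted p = 0.0136), near-identical copies whose counts may share reads. The difference between genes with and without the element was not tested, and most of the 32 genes are known targets of this response.

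A wider list of 147 genes of the same pathways was drawn up by function, also with earlier results of these data known, and 143 had enough counts to be tested. Of 31 tested genes of folding outside the 32, 9 were lower and 2 higher against the restricted wild type, and 7 lower and 2 higher against the freely fed mutant. The shares lower were 29.0% and 22.6%, beside 8.70% and 6.33% of all genes. The prolyl isomerase Fkbp11 fell by -1.39 against the freely fed mutant (5.63 ± 1.60 CPM in the restricted mutant and 14.7 ± 3.24 in the freely fed mutant, SD, n = 4 each, edgeR adjusted p = 0.00222). It was higher in the freely fed mutant than in the wild type (1.56 ± 0.30 (edgeR adjusted p = 9.64e-04)) and higher in the wild type at 104 than at 16 weeks (1.27 ± 0.30 (edgeR adjusted p = 0.00679)). Against the restricted wild type the smallest adjusted p belonged to Fkbp2 (-0.51 ± 0.11 (edgeR adjusted p = 0.00185)), Rcn2, a calcium-binding protein of the lumen, which was higher (0.79 ± 0.20 (edgeR adjusted p = 0.00596)), and Erp44, which retains folding intermediates (-0.46 ± 0.12 (edgeR adjusted p = 0.00818)).

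Of 30 tested genes of the translocon, signal peptidase and N-glycosylation, 7 were lower against the restricted wild type and 10 against the freely fed mutant, and 0 were higher. The shares lower were 23.3% and 33.3%, beside 8.70% and 6.33% of all genes. Rpn1, a subunit of oligosaccharyltransferase, was 67.0 ± 10.6 CPM in the restricted mutant, 119 ± 34.7 in the restricted wild type, 136 ± 20.5 in the freely fed mutant and 121 ± 17.7 in the freely fed wild type (SD, n = 4 each). Its log2 fold change was -0.82 ± 0.17 (edgeR adjusted p = 0.00107) against the restricted wild type and -1.02 ± 0.17 (edgeR adjusted p = 1.32e-04) against the freely fed mutant, and its interaction was called (-1.00 ± 0.23 (edgeR adjusted p = 0.028)). At 104 weeks 14 of these 30 genes were higher than at 16 weeks and 0 lower, beside 5.13% of all genes. They included the signal recognition receptor Srpr (0.53 ± 0.11 (edgeR adjusted p = 0.00236)), the peptidase subunit Sec11c (0.67 ± 0.15 (edgeR adjusted p = 0.00529)) and the glycosylation subunit Krtcap2 (0.61 ± 0.15 (edgeR adjusted p = 0.00944)).

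Of 28 other degradation genes, 2 were lower (7.14%, beside 8.70% of all genes) and 1 higher against the restricted wild type. Against the freely fed mutant 4 were lower (14.3%, beside 6.33% of all genes), led by the ATPase Vcp (-0.51 ± 0.13 (edgeR adjusted p = 0.0121)). Vcp was also lower in the restricted than in the freely fed wild type (-0.48 ± 0.13 (edgeR adjusted p = 0.0185)). Of 22 export genes, 2 were lower (9.09%, beside 8.70% of all genes) and 1 higher against the restricted wild type. Against the freely fed mutant 3 export genes were lower (13.6%, beside 6.33% of all genes). The lower export genes were led by the small GTPase Sar1b in the first (-0.60 ± 0.12 (edgeR adjusted p = 0.00105)) and Kdelr2, which returns escaped chaperones, in the second (-0.74 ± 0.16 (edgeR adjusted p = 0.00314)). Sec23a, a coat protein, had the only called interaction among them (0.69 ± 0.17 (edgeR adjusted p = 0.0352)). Of 20 signalling genes, 0 were called against the restricted wild type and 1, the inhibitor Tmbim6, was lower against the freely fed mutant (-0.51 ± 0.10 (edgeR adjusted p = 0.00101)).

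Of 12 targets of the Eif2ak3 and Atf4 branch, 2 were higher and 1 lower against the restricted wild type (25% called, beside 18.3% of all genes). Against the freely fed mutant 1 was higher and 0 lower (8.33%, beside 11.2%). Asns, asparagine synthetase, was higher in restricted mutant than restricted wild-type livers (2.30 ± 0.58 (edgeR adjusted p = 0.00723)) and in the freely fed mutant than in the freely fed wild type (3.74 ± 0.75 (edgeR adjusted p = 0.00168)). So was Trib3, a pseudokinase induced by Atf4 (1.20 ± 0.28 (edgeR adjusted p = 0.00379) and 1.49 ± 0.30 (edgeR adjusted p = 0.00177)). Vldlr, a lipoprotein receptor, was lower in both (-1.34 ± 0.44 (edgeR adjusted p = 0.0367) and -3.66 ± 0.57 (edgeR adjusted p = 1.23e-04)) and higher in the restricted than in the freely fed mutant (3.28 ± 0.58 (edgeR adjusted p = 4.05e-04)). Asns was also higher at 104 than at 16 weeks (3.64 ± 0.76 (edgeR adjusted p = 0.00288)). Atf4 itself was called in 1 comparison, higher in the restricted than in the freely fed wild type (0.65 ± 0.18 (edgeR adjusted p = 0.0174)).

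Other lists were counted in the same comparisons as the 32 genes, and not all of them moved. Of all genes, 18.3% were called against the restricted wild type and 11.2% against the freely fed mutant. Against the restricted wild type, 10 of 10 macrophage and Kupffer cell markers were higher, with a summed level of 238 to 339.6 CPM in the restricted mutant and 83.5 to 147 in the restricted wild type. Against the freely fed mutant, 1 of 10 was higher, at 238 to 339.6 CPM in the restricted and 155 to 316 CPM in the freely fed mutant. Hepatocyte markers were called in both directions, 2 higher and 3 lower of 10 in each comparison, at a summed level of 98929.5 to 128575 CPM in the restricted mutant, 129138 to 169799 in the restricted wild type and 92653 to 116279 in the freely fed mutant. Of 20 secreted plasma proteins, 5 of which are also among those markers, 7 were lower and 1 higher against the restricted wild type and 5 lower against the freely fed mutant, with the antitrypsin gene Serpina1c lowest (-1.21 ± 0.18 (edgeR adjusted p = 4.70e-05) and -1.42 ± 0.18 (edgeR adjusted p = 5.90e-06)). Mitochondrial transcripts took 13.5 to 15% of counts in the restricted mutant, 12.5 to 16.9% in the restricted wild type and 9.37 to 10.9% in the freely fed mutant. Against the restricted wild type, 2 of 3 tested neutrophil markers were higher and the third was not called (-0.30). The sum over 5 neutrophil markers was 5.02 to 7.97 CPM in the restricted mutant and 2.51 to 7.74 in the restricted wild type. Of 13 acute-phase genes 1 was higher and 0 lower (7.69% called), and of 14 clock genes 1 was higher and 3 lower (28.6% called). Against the freely fed mutant, 2 of 5 endothelial markers were higher and 3 of 13 acute-phase genes were lower (12 of 13 below 0, median log2 fold change -0.70). Of 14 clock genes 1 was higher and 1 lower there (14.3% called). Of stellate and cholangiocyte markers 0 of 5 each were called in either. The part of these shifts in the levels of the 32 genes was not tested.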

How the data were processed

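Raw read counts per gene and library were deposited by the authors, with no normalization, for polyadenylated liver RNA of 24 libraries. The submitters' processing notes name STAR 2.7.0f, Trimmomatic 0.39, the featureCounts program of Subread 1.6.4 and the build GRCm38.p6. Annotation release, strand use and treatment of multi-mapped reads: not given in the sources used here. Gene positions came from GENCODE M21 by identifier, and promoter sequences from RefSeq.

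In R 4.3.3, edgeR 4.0.16 was run on the genes that filterByExpr kept (12690), with TMM scaling and a single fit of 6 group means over the 24 libraries, which left 18 residual degrees of freedom. Contrasts were tested with the robust quasi-likelihood F test, with Benjamini-Hochberg adjustment over all genes tested and a threshold of 0.05. The steps were tested on simulated counts. Alternatives were DESeq2 1.42.0, DESeq2 size factors in edgeR, no filter, a fit on the groups compared only, the replicate number as a block, and leaving out each library. The depth of 13.3 to 20.6 M counts limits precision mainly for Derl3. CPM are compared within a gene only, since the deposited gene lengths span introns.

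Members and lists were chosen with earlier results of these data known. Every called gene among the 32 is named with its value where 8 or fewer were called, and otherwise the 8 with the smallest adjusted p and a summary of the rest. Values per library are given for the 10 genes called in most contrasts and for the 3 sensors and Xbp1, and beside them for a few others chosen after their values were seen. Of other pathway genes, up to 3 called per list and comparison are named. Samples carry numbers within a group, but no label says that they are separate animals, so the p-values reflect sample-to-sample spread, which may be technical. Every pair of libraries in a group differed by more than counting noise (chi-square per degree of freedom at least 8.32). Srp54a and Srp54b are near-identical copies, and their counts may share reads.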

Additional observations from a re-analysis of the deposited data

Results flagged for a closer look

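A library stood apart from the other 3 of its group, with a gap to the nearest that was above Dixon's 95% critical value as a share of the group's range, in 16 of 192 combinations of gene and group, where chance gives about 5%. In replicate 3 of the restricted wild type these were Syvn1 at 283 CPM, Derl3 at 6.61 and Sec24d at 117, all high. In replicate 2 of the restricted mutant it was Xbp1 at 144 CPM, also high. In the freely fed mutant they were P4hb at 1198 CPM in replicate 3 and Derl1 at 80.8 in replicate 1 at 16 weeks. At 7 weeks replicate 4 was low for Hspa5 (1056.5 CPM) and Hsp90b1 (928) and high for Ssr1 (67.8). At 104 weeks replicate 2 was high for Pdia6 (559 CPM), Creld2 (321) and Hyou1 (478). Replicate 2 of the freely fed wild type at 16 weeks was high for Hspa5 (1843 CPM), Edem1 (157), Creld2 (139.5) and Derl1 (70.3).

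The effect of restriction differed between genotypes for 2 pathway genes outside the 32, by the interaction term of the edgeR fit. The difference of log2 fold changes, mutant minus wild type, was -1.00 ± 0.23 for Rpn1 (edgeR adjusted p = 0.028) and 0.69 ± 0.17 for Sec23a (edgeR adjusted p = 0.0352).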

How the results depend on the processing

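The 49 called results of single genes were recomputed under 660 alternatives in all: 522 kept their call, 138 lost it and 0 changed sign. The count of 21 genes lower against the restricted wild type was 20 with DESeq2 size factors, 18 with no filter and 22 with DESeq2. It was 6 in a fit on those groups only. Without replicates 3 and 4 of the restricted wild type (chosen after seeing the data) 4 genes were called, 3 lower and 1 higher. With 1 library left out the count was 13 to 23, lowest without replicate 3 of the restricted wild type. The same counts against the freely fed mutant were 21, 17, 22 and 23, and 12 to 23 with 1 library left out. For 104 against 16 weeks the count of 5 ran from 2 to 5 with 1 library left out. For restriction in the wild type the count of 2 was 0 with no filter and 0 in a fit on those groups only, 0 to 6 with 1 library left out, and 9 without replicates 3 and 4. For the freely fed mutant against the wild type the count of 0 was 2 with DESeq2, 7 in a fit on those groups only and 0 to 1 with 1 library left out. For the mutant at 16 against 7 weeks it was 0 throughout, and for the interaction it was 5 with DESeq2 and 0 to 3 with 1 library left out. A fit on 2 groups or without a library uses fewer libraries, but the counts moved in both directions. The main fit shares 1 estimate of spread per gene over the 6 groups. The restricted wild type had the widest spread on these genes, with a median ratio of highest to lowest library of 2.62, beside 1.23 to 1.66 in the other groups. SEs and p-values against that group may therefore be too small. The cause of these shifts was not tested.

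With the replicate number as a block, 19 genes were called against the restricted wild type, 22 against the freely fed mutant, 4 for age and 3 for restriction in the wild type. Over all tested genes, deviations of same-numbered libraries from their group means correlated at -0.27 to 0.35 (median 0.02), with 16 of 60 pairs over 0.1. Libraries with different numbers correlated at -0.36 to 0.46 (median -0.01), with 34 of 180 pairs over 0.1. Correlations this weak cannot show whether the numbers pair the samples. On the 32 genes, replicate 3 was most often highest and replicate 1 most often lowest in both restricted groups.

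Over all genes, counts of calls moved by more than 1.5 times in these cases. A fit on the groups compared only gave 2202 in place of 1262 (freely fed mutant against wild type), 877 in place of 2320 (restricted mutant against wild type), 568 in place of 87 (mutant at 16 against 7 weeks), 986 in place of 1726 (restriction in the wild type) and 126 in place of 190 (interaction). DESeq2 gave 201 in place of 87 and 388 in place of 190. Leaving out replicates 3 and 4 of the restricted wild type gave 898 for restriction in the wild type and 105 for the interaction.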
